A study of Ovis aries with 2 samples.

Results

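SPP1 encodes osteopontin, and its transcript was followed through cells of the anterior pituitary of 6-month-old and 3-month-old Hu sheep. SPP1 was 1 of 23141 genes in the deposited count matrices, found by its symbol, and it was chosen by its counts in these same cells: in an earlier look at the libraries its level differed between the ages in opposite directions in gonadotrophs and somatotrophs. Those counts are therefore given as a description, with no test. There was 1 library per age, each a droplet single-cell library of transcripts tagged with unique molecular identifiers (UMIs, which count each captured transcript once). Age and library cannot be told apart, and the sources used here do not say how many animals, or of which sex, gave each library. No other genotype or treatment is named in the labels. Intervals are exact 95% intervals for counting error and do not cover differences between animals.

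Osteopontin is a secreted, heavily phosphorylated glycoprotein of the SIBLING family, a group best known from the mineralized matrix of bone and teeth. It carries an RGD motif that binds integrins, and it also binds CD44. Besides bone cells, activated macrophages and several epithelia are well-known sources, and the protein acts as a matrix component and as a cytokine for adhesion and migration. In the anterior pituitary, somatotrophs make growth hormone (GH), lactotrophs prolactin (PRL), and gonadotrophs the gonadotropins, built from the shared subunit CGA with LHB or FSHB.

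Deposited barcodes numbered 15031 in the 6-month library, at a median depth of 7434 UMIs and 175239612 UMIs in all, against 18961 in the 3-month library, at a median depth of 4361 UMIs and 142479651 in all. After filtering, 12683 and 15446 cells remained in the 6-month and the 3-month library. The libraries shared 81 barcode sequences, 0.539% of those of the 6-month library and 0.427% of those of the 3-month library. Somatotrophs were taken as cells with GH at 10% of their UMIs or more, and gonadotrophs as cells with LHB at 0.3% and CGA at 3% or more. The other classes are clusters with 3 or more supporting markers, written as "-like". The clusters that held most gonadotrophs also carried GNRHR, GATA2 and FOXL2, and the cluster that held most somatotrophs carried GHRHR and POU1F1.

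SPP1 was concentrated in few classes, and not in the same ones in both libraries. Over all cells it had 6657 UMIs in the 6-month library and 16161 in the 3-month library, or 41.7 and 127 CPM (SPP1 UMIs per 1000000 UMIs) of the UMI totals. Gonadotrophs held 44.3% of the SPP1 UMIs of the 6-month library and 0.495% of those of the 3-month library. Somatotrophs held 32.3% in the 6-month library, against 85.6% in the 3-month library. Macrophage-like cells added 10.1% and 5.65%, and endothelial-like cells 4.28% and 2.33%, in the 6-month and the 3-month library. Lactotroph-like cells, the largest class of the 6-month library with 37.8% of its cells, held 2.64% of its SPP1.

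On the CPM scale, the order of the 7 main classes differed between the libraries. In the 6-month library gonadotrophs stood highest at 616 CPM (594 to 639), followed by somatotrophs at 487 (466 to 508). Endothelial-like cells came next at 149 (133 to 168) and macrophage-like cells at 57.8 (53.5 to 62.3). None of these intervals overlapped its neighbour, but they do not cover the spread between cells. A single gonadotroph held 655 of the 2947 SPP1 UMIs of its class. The order of gonadotrophs and somatotrophs in that library therefore rests on few cells. In the 3-month library somatotrophs stood highest at 1366 CPM (1343 to 1389), followed by macrophage-like cells at 153 (143 to 163) and endothelial-like cells at 59.0 (53.2 to 65.2). Gonadotrophs came at the low end there, with 5.46 CPM (4.33 to 6.80). That interval overlapped those of stem or folliculostellate-like cells at 6.05 CPM (5.27 to 6.92) and T or NK-like cells at 11 CPM (3.00 to 28.2). A class level does not tell more SPP1 cells from more SPP1 per cell, so counts per cell follow for each class.

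**Figure D1:**
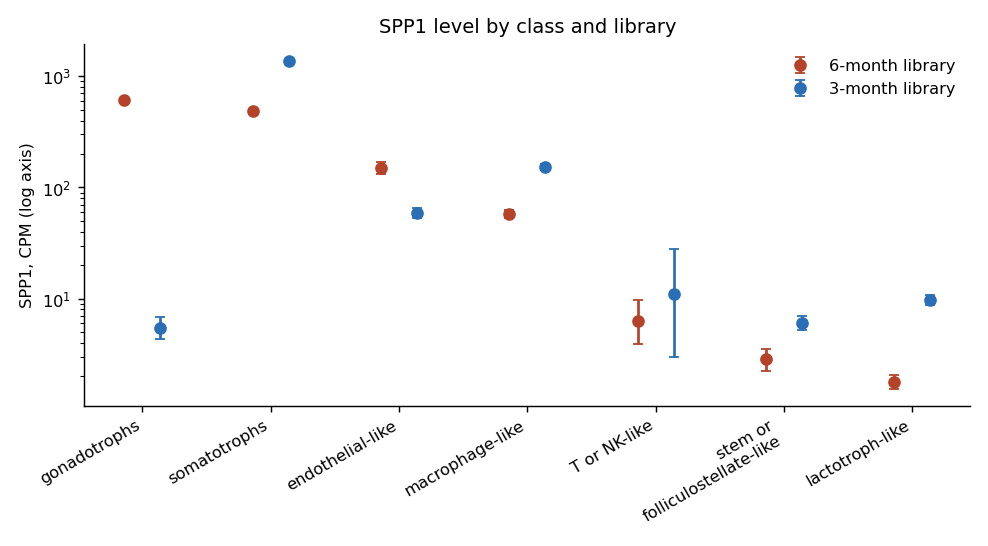
SPP1 level, in CPM on a log axis, in 7 classes of the 6-month library (red, left) and the 3-month library (blue, right); points are sums over the cells of a class and bars are exact 95% Poisson intervals for counting error. Gonadotrophs stood at 616 CPM in the 6-month library and 5.46 CPM in the 3-month library, while somatotrophs stood at 487 and 1366 CPM.

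Gonadotrophs showed the wider of the 2 contrasts. They had 2947 SPP1 UMIs in 264 cells of the 6-month library, against 80 in 1192 cells of the 3-month library. The log2 ratio, 6-month over 3-month library here and throughout, was 6.82 (6.50 to 7.16). It is a ratio of the counts as measured, with a count in the 3-month library at the level that free RNA alone can give, as described further on. Of 9785 genes with at least 100 summed counts in gonadotrophs, 393 (4.02%) were at least 2-fold higher in the 6-month library, and SPP1 ranked 8 from the top. The gonadotrophs of the 6-month library were also deeper, with a median of 18442 UMIs per cell against 10984 in the 3-month library.

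In the 6-month library SPP1 came from a minority of gonadotrophs with very high counts. The lowest and the median gonadotroph had 0 SPP1 UMIs, and the highest had 655, 447, 186, 167 and 142. In the 3-month library the lowest and the median were likewise 0 and the highest was 15. Cells with 10 SPP1 UMIs or more numbered 27 of 264 in the 6-month library and 2 of 1192 in the 3-month library, and 16 cells of the 6-month library had 50 or more, against 0 in the 3-month library. The 10 highest cells carried 72.1% of the class's SPP1 in the 6-month library.

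The share of gonadotrophs with at least 1 SPP1 UMI was 20.5% (15.8 to 25.8) in the 6-month library and 2.94% (2.05 to 4.06) in the 3-month library. With every cell thinned to 2000 UMIs, which leaves out 10 and 138 shallower cells, the shares were 11.8% (8.11 to 16.4) and 0.854% (0.391 to 1.62). T or NK-like cells, used here for the level that free RNA can give in droplets although activated T cells can make osteopontin, had thinned shares of 0.476% (0.130 to 1.21) and 2.47% (0.30 to 8.64) in the 6-month and the 3-month library. Their median depths were 2735 and 2383 UMIs. The gonadotroph share of the 3-month library was within the interval of that library's T or NK-like cells, which rests on 2 of 81 cells. The thinned shares of macrophage-like cells (5.47%) and endothelial-like cells (7.33%) of that library also fell within it. That interval therefore cannot tell background from expression. The gonadotroph share of the 6-month library was above the interval of its T or NK-like cells.

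The free RNA expected made up a different part of the SPP1 counts of gonadotrophs in the 2 libraries. Gonadotrophs with few SPP1 UMIs carried more GH in both. When the free RNA share was taken from foreign hormone transcripts, 28.8 SPP1 UMIs were expected in gonadotrophs of the 6-month library, where 2947 were counted. In the 3-month library 80.7 were expected and 80 counted, so that subtraction left no value to form a ratio. In cells of the 6-month library with 10 SPP1 UMIs or more, GH made up 0.00959% of UMIs and the macrophage markers together 0.00285%, at or below the 0.0384% and 0.0202% in gonadotrophs without SPP1. The 27 SPP1 cells of the 6-month library with 1 to 9 UMIs had GH at 0.809% and PRL at 11.3% of their UMIs. Those without SPP1 had 0.0384% and 5.07%. The 33 SPP1 cells of the 3-month library with 1 to 9 UMIs had GH at 1.89% of their UMIs, against 0.0522% in those without SPP1. The part of these transcripts in the SPP1 counts was not tested. Leaving out cells with GH at 0.5% or more gave 2934 and 43 SPP1 UMIs and a log2 ratio of 7.75.

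**Figure D2:**
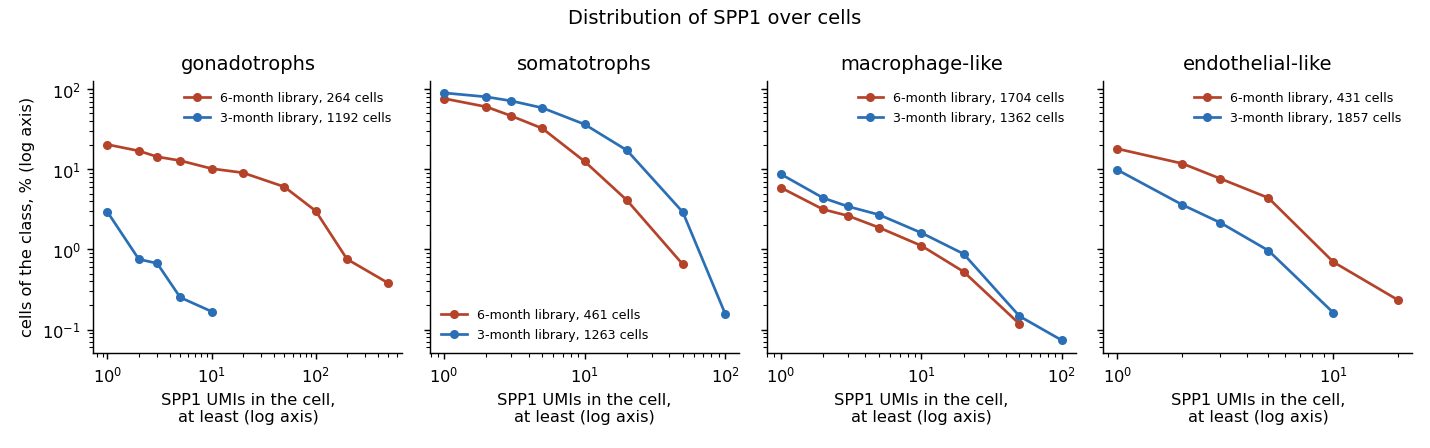
Percentage of cells of a class (log axis) that held at least the number of SPP1 UMIs on the horizontal log axis, in 4 classes of the 6-month library (red) and the 3-month library (blue); values of 0% are not drawn. In gonadotrophs 10.2% of cells of the 6-month library reached 10 UMIs against 0.168% in the 3-month library, whereas in somatotrophs 12.6% and 36.6% did.

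The gonadotrophs of the 6-month library with most SPP1 carried CGA and LHB at shares near those of the other gonadotrophs and little FSHB. In the 27 cells with 10 SPP1 UMIs or more, CGA made up 25.3% and LHB 3.00% of UMIs, against 19.4% and 3.50% in the 210 cells without SPP1. FSHB, the beta subunit of follicle-stimulating hormone, made up 0.00255% in the 27 cells and 0.151% in the 210 cells without SPP1. PRL made up 4.36% and 5.07% in the 27 and the 210 cells. These sets of cells come from 1 library and were defined by SPP1 itself, so the values are a description. They also differ in cluster. FSHB was the gene that most set cluster 21 apart, where 4 of 72 gonadotrophs of the 6-month library had SPP1. Whether low FSHB goes with SPP1 or with the cluster was not tested.

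Most of this SPP1 lay in 1 cluster. Cluster 24 held 145 of the 264 gonadotrophs of the 6-month library, with 2755 SPP1 UMIs, and 30.3% of its cells had an SPP1 UMI. Cluster 21 was present in both libraries and had 154 UMIs in 72 cells of the 6-month library, 142 of them in a single cell, against 74 UMIs in 842 cells of the 3-month library. Cluster 26, of shallow cells, had 33 UMIs in 31 cells of the 6-month library and 3 UMIs in 247 cells of the 3-month library. Without cluster 24, whose cells came mainly from the 6-month library, 192 and 80 UMIs remained and the log2 ratio was 4.27. That value rests on the cell with 142 UMIs: without it and the cell with most SPP1 of the 3-month library, 50 UMIs in 118 cells and 65 in 1189 cells gave a log2 ratio of 2.65 (2.09 to 3.21).

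IGFBP1, which encodes a binding protein of insulin-like growth factors, marks many gonadotrophs of the 6-month library and crosses the SPP1 cells. Of 163 gonadotrophs with an IGFBP1 UMI, 28.2% (21.5 to 35.8) had an SPP1 UMI, with 2590 UMIs in all, against 7.92% (3.48 to 15) and 357 UMIs in the 101 without IGFBP1. Thinned to 2000 UMIs, the shares were 16.9% and 3.19%. The IGFBP1 cells were deeper, with medians of 22571 and 14660 UMIs. Of the 27 gonadotrophs with 10 SPP1 UMIs or more, 24 had IGFBP1, while the cell with most SPP1 had 1 IGFBP1 UMI. IGFBP1 was the gene that most set cluster 24 apart, and that cluster held 2755 of the 2947 SPP1 UMIs. Whether the 2 genes go together within cluster 24 was not tested. The 3-month library had 1 gonadotroph with an IGFBP1 UMI, which had no SPP1. Without the IGFBP1 cells the log2 ratio was 5.27. Of the 357 UMIs in that set, 186 and 142 lay in 2 cells. With the 2 highest cells of each library left out as well, 29 UMIs in 99 cells of the 6-month library and 52 in 1189 cells of the 3-month library gave a log2 ratio of 2.30 (1.60 to 2.99).

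**Figure D3:**
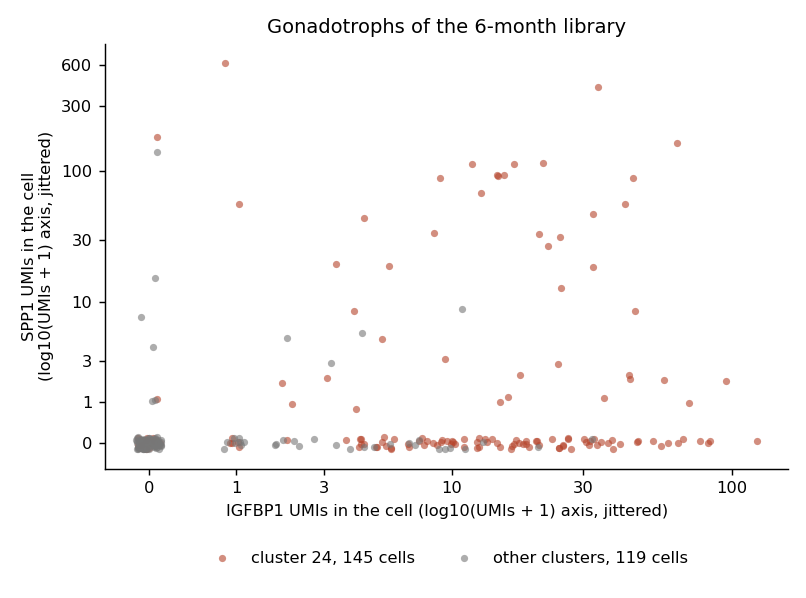
SPP1 against IGFBP1 UMIs in each of the 264 gonadotrophs of the 6-month library, on log10(UMIs + 1) axes with a small jitter; red points belong to cluster 24 and grey points to other clusters. Of the 163 cells with IGFBP1, 28.2% had SPP1, and 24 of the 27 cells with 10 SPP1 UMIs or more had IGFBP1.

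Somatotrophs expressed SPP1 broadly in both libraries, at a lower level in the 6-month library. They had 2153 SPP1 UMIs in 461 cells of the 6-month library and 13838 in 1263 cells of the 3-month library. The log2 ratio was −1.49 (−1.55 to −1.42), which is 2.81-fold lower (2.68 to 2.94). Of 8819 genes measured in somatotrophs, 169 (1.92%) were at least 2-fold lower in the 6-month library, and SPP1 ranked 65 from the bottom. Depth was close here, with medians of 7069 and 7532 UMIs per cell in the 6-month and the 3-month library.

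Unlike in gonadotrophs, the SPP1 of somatotrophs was spread over most cells. The lowest somatotroph had 0, the median 2 and the highest 88 SPP1 UMIs in the 6-month library, against 0, 6 and 154 in the 3-month library. The share with at least 1 UMI was 76.8% (72.7 to 80.6) and 90.3% (88.6 to 91.9). Thinned to 2000 UMIs it was 50.9% (46.1 to 55.7) in 440 cells and 74.9% (72.3 to 77.3) in 1169 cells. The 10 highest cells carried 19.3% of the class's SPP1 in the 6-month library and 6.83% in the 3-month library. The cells of the 2 libraries overlapped over the whole range up to 88 UMIs.

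Within the somatotroph gate the difference was present in each range of GH. Among cells with GH at 10 to 20% of UMIs, the thinned share with SPP1 was 41.1% in the 6-month library and 65.8% in the 3-month library. At 20 to 30% it was 57.8% and 76.0%, at 30 to 40% it was 52.4% and 79.6%, and above 40% it was 48.9% and 71.9%. The levels in the same order of GH were 428 and 786 CPM of the UMI totals, 454 and 1289, 537 and 1492, and 766 and 1136. Just outside the gate, at 5 to 10% GH, the shares were 24.4% and 29.4% and the levels 134 and 279 CPM. At 1 to 5% GH the shares were 9.30% and 25% and the levels 53.3 and 167 CPM. Below 1% GH the levels ran the other way, with 27.9 CPM in the 6-month library and 17.6 CPM in the 3-month library. The shares there were 1.80% and 2.13%. Gonadotrophs with GH below 0.5% fall in this range, with 2934 of its 4248 SPP1 UMIs in the 6-month library. In the 3-month library they had 43 of its 2019. Most SPP1 of this range in the 6-month library was thus that of gonadotrophs, described above.

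**Figure D4:**
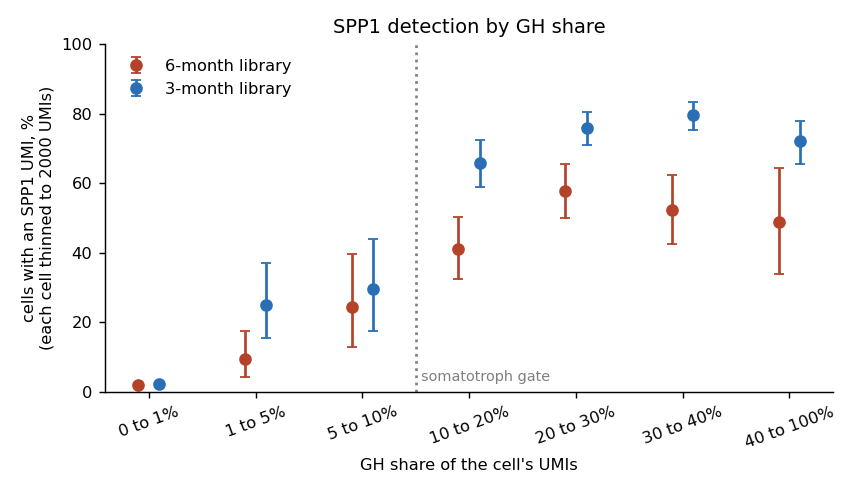
Percentage of cells with an SPP1 UMI after thinning every cell to 2000 UMIs, by the share of the cell's UMIs that came from GH, in the 6-month library (red, left) and the 3-month library (blue, right); bars are exact 95% Clopper-Pearson intervals for counting error, and the dotted line marks the somatotroph gate of 10%. Within the gate the 6-month library lay between 41.1% and 57.8% and the 3-month library between 65.8% and 79.6%.

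Macrophage markers, PRL and TSHB ran opposite ways in somatotrophs of the 2 libraries. Endothelial markers, CGA and LHB were lower where SPP1 was high in both. In somatotrophs of the 6-month library, macrophage markers made up 0.0938% of UMIs in cells with 10 SPP1 UMIs or more and 0.0372% in cells without SPP1. In those of the 3-month library they made up 0.00927% and 0.0197%. PRL made up 4.75% and 1.13% in the same 2 sets of the 6-month library, and 1.24% and 1.52% in those of the 3-month library. For TSHB the values were 0.0338% and 0.0229% in the 6-month library, and 0.0466% and 0.0874% in the 3-month library. Endothelial markers made up 0.00119% and 0.00465% in the same 2 sets of the 6-month library, and 0.0024% and 0.0131% in those of the 3-month library. CGA made up 0.0182% and 0.0533% in the 6-month library and 0.0451% and 0.0867% in the 3-month library, and LHB 0.00274% and 0.00515%, and 0.00951% and 0.0145%. The cells with 10 SPP1 UMIs or more were deeper, and the part of these transcripts in the SPP1 counts was not tested. Within cluster 15, which held 93.7% and 89.7% of the somatotrophs of the 6-month and the 3-month library, the log2 ratio was −1.50.

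Few genes shared the opposite direction of SPP1 in these 2 classes. Of 8387 genes measured in both, 7 (0.0835%) were higher by 2-fold or more in gonadotrophs and lower by 2-fold or more in somatotrophs of the 6-month library, SPP1 among them. The others were TSHB, the beta subunit of thyrotropin, with log2 ratios of 2.82 in gonadotrophs and −1.59 in somatotrophs; ESM1, a secreted proteoglycan, with 2.57 and −2.36; and SPARCL1, a matrix glycoprotein, with 1.05 and −1.62. PRSS23, a serine protease, had 1.89 and −1.94, the transcription cofactor LBH 2.64 and −1.63, and the DNA helicase FBH1 1.76 and −1.01. These ratios are of class sums and do not say that the same cells carry the genes. In gonadotrophs of the 6-month library TSHB made up 0.00015% of UMIs in cells with 10 SPP1 UMIs or more. In those without SPP1 it made up 0.00612%. SPP1 had the widest gap of the 7 genes between its 2 ratios. As the gene was chosen for this pattern, its place in the list is not a finding.

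As a class, macrophage-like cells had less SPP1 in the 6-month library. They had 672 SPP1 UMIs in 1704 cells of the 6-month library and 913 in 1362 cells of the 3-month library, or 57.8 and 153 CPM. The log2 ratio was −1.41 (−1.55 to −1.26). At least 2-fold lower were 487 of 9381 genes (5.19%), and SPP1 ranked 219 from the bottom. The lowest and the median cell had 0 UMIs in both libraries, and the highest had 78 in the 6-month library and 191 in the 3-month library. Cells with 10 UMIs or more numbered 19 and 22.

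The share of macrophage-like cells with SPP1 was also lower in the 6-month library, by an amount that changed with the depth compared. With at least 1 UMI were 5.93% (4.85 to 7.16) of cells in the 6-month library and 8.74% (7.29 to 10.4) in the 3-month library. Thinned to 2000 UMIs, the shares were 4.28% (3.32 to 5.42) and 5.47% (4.25 to 6.90), with overlapping intervals, and the log2 ratio of the thinned counts was −0.77. Thinned to 5000 UMIs they were 6.55% of 825 cells and 12.2% of 403 cells.

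The libraries fell into different macrophage-like clusters, and the lower level was not seen in every shared cluster. Cluster 3 held 60.1% of the cells of the 6-month library at 99.5 CPM of the UMI totals, and cluster 22 held 88.7% of those of the 3-month library at 174 CPM. A cluster filled by 1 library may be that library rather than a kind of macrophage. Of the clusters with 20 or more cells of both libraries, cluster 11 had 26.7 CPM (22.1 to 31.9) in 425 cells of the 6-month library and 24.1 CPM (12.5 to 42.2) in 100 cells of the 3-month library, a log2 ratio of 0.16 (−0.69 to 1.16). Cluster 0 had 9.65 CPM (5.28 to 16.2) in 217 cells of the 6-month library and 0 UMIs in 37 cells of the 3-month library, with an interval up to 16.9 CPM. Cluster 22 had 7.12 CPM (0.18 to 39.7) in its 38 cells of the 6-month library. In the 19 cells of the 6-month library with 10 SPP1 UMIs or more, GH made up 3.33% of UMIs, against 0.0758% in the 22 such cells of the 3-month library, and PRL 22.6% against 6.10%. Their part in the SPP1 counts was not tested. Without cells with GH at 0.5% or more, the log2 ratio was −1.41.

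Endothelial-like cells went the other way. They had 285 SPP1 UMIs in 431 cells of the 6-month library and 377 in 1857 cells of the 3-month library, or 149 and 59.0 CPM, a log2 ratio of 1.34 (1.11 to 1.57). Of 7786 genes, 233 (2.99%) were at least 2-fold higher in the 6-month library, and SPP1 ranked 131 from the top. With at least 1 UMI were 18.1% (14.6 to 22.1) and 9.85% (8.54 to 11.3) of cells, and 13.9% (10.5 to 18.0) and 7.33% (6.00 to 8.84) after thinning. The highest cells had 29 and 14 UMIs. Within cluster 17, the endothelial-like cluster with 20 or more cells of both libraries, 128 UMIs in 138 cells of the 6-month library and 377 in 1855 cells of the 3-month library gave a log2 ratio of 1.98. Macrophage markers made up 0.0275% of UMIs in the 75 cells of the 6-month library with 1 to 9 SPP1 UMIs, which held 222 of the 285, against 0.0112% in cells without SPP1, and none were counted in the 3 cells with 10 or more, which held 63. Their part in the SPP1 counts was not tested.

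Lactotroph-like, stem or folliculostellate-like and T or NK-like cells had little SPP1. Lactotroph-like cells had 1.79 CPM (176 UMIs in 4791 cells) in the 6-month library and 9.72 CPM (429 in 2334 cells) in the 3-month library, a log2 ratio of −2.44 (−2.70 to −2.18), where 512 of 11856 genes (4.32%) were at least 2-fold lower. A single cell held 143 of the 429 UMIs of the 3-month library. Free RNA would account for 91.0 of the 176 and 86.6 of the 429 UMIs, and its subtraction gave a log2 ratio of −3.17. Stem or folliculostellate-like cells had 2.84 and 6.05 CPM, a log2 ratio of −1.09 (−1.49 to −0.71), where 267 of 12611 genes (2.12%) were at least 2-fold lower. Of their 77 and 215 SPP1 UMIs, 45.9 and 167 were expected from free RNA. With these subtracted the log2 ratio was −0.22 (−0.94 to 0.44), an interval that covers 0. After thinning, 0.294% and 1.05% of lactotroph-like cells had an SPP1 UMI in the 6-month and the 3-month library. Of stem or folliculostellate-like cells 0.540% and 1.03% did. These shares lay within the intervals of T or NK-like cells. In the 3-month library that interval is too wide to tell background from expression. T or NK-like cells themselves had 6.34 and 11 CPM, with an interval of the log2 ratio from −2.36 to 1.21. Cells of clusters without a name had more, with 30.7 CPM (185 UMIs in 934 cells) in the 6-month library. In the 3-month library they had 53.8 CPM (83 UMIs in 352 cells), a log2 ratio of −0.81 (−1.19 to −0.42). Among them, cluster 6 had SPP1 in 17.7% of 198 cells of the 6-month library, and in 12.7% after thinning.

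Smaller classes were measured with little precision. Fibroblast-like cells had 25 UMIs in 29 cells of the 6-month library, 24 of them in a single cell, and 16 in 140 cells of the 3-month library. Proliferating-like cells had 29 UMIs in 50 cells and 54 in 106 cells, with an interval of the log2 ratio from −1.31 to 0.07. B or plasma-like cells had 14 UMIs in 143 cells of the 6-month library and 0 in 19 cells of the 3-month library, a sample too small to set beside it. Corticotroph-like cells had 1 UMI in 7 cells and 3 in 213 cells. Cells with TSHB at 1% of UMIs or more were also described, a gate for thyrotrophs chosen after values were seen. They had 93 SPP1 UMIs in 15 cells of the 6-month library and 112 in 23 cells of the 3-month library. These are 681 and 537 CPM of the UMI totals. On that scale gonadotrophs and somatotrophs had 584 and 525 CPM in the 6-month library, and 5.76 and 1266 CPM in the 3-month library. Of the TSHB cells, 66.7% (38.4 to 88.2) and 52.2% (30.6 to 73.2) had SPP1. At median depths of 7580 and 5068 UMIs the order turned with thinning, to 26.7% of 15 cells and 35.0% of 20 cells. Of the 23 cells of the 3-month library, 4 also had GH at 10% of UMIs or more and held 44 of the 112 SPP1 UMIs. The 19 others had 68 SPP1 UMIs, or 566 CPM of the UMI totals, and 47.4% (24.4 to 71.1) had SPP1. In the 6-month library 0 of the TSHB cells had GH at that share.

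Somatotroph-like cells outside the gate had 136 CPM in the 6-month library and 321 CPM in the 3-month library, and gonadotroph-like cells outside the gate had 4 UMIs in 98 cells and 11 in 475 cells. Within the gonadotroph gate, cells short of LHB at 1% or CGA at 5% had SPP1 in 12.5% of 24 cells of the 6-month library and 5.96% of 151 cells of the 3-month library, at median depths of 10356 and 6217 UMIs. Thinned to 2000 UMIs, SPP1 was in 0 of 23 cells, which allows a share of up to 13.0%, and in 2.36% of 127 cells. Just below the gate, down to LHB at 0.15% and CGA at 1.5%, it was in 1 of 9 cells of the 6-month library and 2.33% of 86 cells of the 3-month library.

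Genes for the proteins that bind osteopontin were mostly within 2-fold between the libraries, apart from macrophage-like cells. Of 10 receptor genes, 3 had 100 summed counts or more in gonadotrophs, of which 1 was at least 2-fold higher and 0 lower in the 6-month library. Of all genes measured in gonadotrophs, 4.02% were higher and 5.61% lower by that much. ITGAV, the alpha subunit of the vitronectin receptor that reads the RGD motif, had 51.0 CPM in gonadotrophs of the 6-month library and 24.5 CPM in those of the 3-month library, a log2 ratio of 1.06 (0.82 to 1.30). ITGB1, a beta subunit shared by many integrins, had 221 and 212 CPM. CD44 had 3 and 2 UMIs in gonadotrophs. In somatotrophs 2 receptor genes were measured and neither was past 2-fold, where 2-fold changes were seen upward in 0.998% and downward in 1.92% of all genes.

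In macrophage-like cells 8 receptor genes were measured, 1 higher and 3 lower by 2-fold or more in the 6-month library. Of all genes measured there, 6.27% were higher and 5.19% lower by that much. ITGA4, an alpha subunit of leukocyte integrins, had 57.6 CPM in the 6-month library and 21.8 CPM in the 3-month library, a log2 ratio of 1.40 (1.13 to 1.68). ITGAV had 59.0 and 128 CPM, with a log2 ratio of −1.11, its partner ITGB5 32.9 and 66.8 CPM (−1.02), and ITGA9, which binds a cryptic site in cleaved osteopontin, 13.9 and 31.9 CPM (−1.19). CD44 had 74.8 and 48.0 CPM, a log2 ratio of 0.64 (0.45 to 0.84). The median log2 ratio of the 8 genes was 0.00, beside 0.02 over all genes measured in the class. In endothelial-like cells 6 receptor genes were measured, of which ITGA9 was at the 2-fold mark with 56.6 and 28.3 CPM and 0 were lower, where 2.99% of all genes were higher and 3.1% lower by that much.

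Genes that accompany SPP1 in macrophages of other tissues differed in both directions. Of 11 genes on that list, 9 were measured in macrophage-like cells, with 1 higher and 3 lower by 2-fold or more in the 6-month library and a median log2 ratio of −0.80, beside 6.27% higher, 5.19% lower and a median of 0.02 over all genes. LPL, a lipase, had 8.34 CPM in the 6-month library and 47.3 CPM in the 3-month library, a log2 ratio of −2.50. The lysosomal proteases CTSK and CTSB had log2 ratios of −1.86 and −1.22. FABP5, a fatty acid binding protein, had 718 and 336 CPM, a log2 ratio of 1.10, and the lectin LGALS3 had 531 and 274 CPM, a ratio of 0.95. TREM2, a lipid receptor of macrophages, had 15.9 and 27.7 CPM (−0.80).

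Other members of the SIBLING family gave little. DMP1 and MEPE were listed among the genes, and both had 0 UMIs in gonadotrophs, somatotrophs and endothelial-like cells of both libraries. In macrophage-like cells DMP1 had 6 UMIs in each library and MEPE 0. FAM20C, the kinase that phosphorylates secreted proteins such as osteopontin, had 29.7 CPM in gonadotrophs of the 6-month library and 53.2 CPM in those of the 3-month library, a log2 ratio of −0.84 (−1.11 to −0.58), and 17 and 20.4 CPM in somatotrophs. Of the 8 genes of the list of kinase and proteases, 2 were measured in each of these classes and 0 were past 2-fold.

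Several matrix-associated glycoproteins of other families also differed between the libraries. Of 10 such genes, 5 were measured in gonadotrophs, 2 higher and 1 lower by 2-fold or more in the 6-month library, where 4.02% of all genes were higher and 5.61% lower. THBS1, or thrombospondin 1, had 58.7 CPM in gonadotrophs of the 6-month library and 3.55 CPM in those of the 3-month library, a log2 ratio of 4.05 (3.62 to 4.50), and 379 and 35.9 CPM in macrophage-like cells, a ratio of 3.40. In somatotrophs 3 were measured and all 3 were at least 2-fold lower, namely SPARC (−1.37), SPARCL1 (−1.62) and CCN1 (−1.95). The median of these 3 was −1.62, beside −0.01 over all genes measured in somatotrophs, of which 1.92% were at least 2-fold lower. The same 3 genes were also at least 2-fold lower in lactotroph-like cells (−2.08, −1.47 and −1.82) and macrophage-like cells (−2.12, −1.33 and −1.40). Not all were in gonadotrophs (−0.06, 1.05 and −1.82), stem or folliculostellate-like cells (−0.58, −0.16 and −1.2) or endothelial-like cells (−0.28, 0.74 and 0.07). The part of free RNA in them was not tested.

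Transcription factors reported at SPP1 promoters in rodents or human were mostly within 2-fold. In gonadotrophs 7 of 13 were measured, with 0 higher and 2 lower by 2-fold or more in the 6-month library, where 4.02% of all genes were higher and 5.61% lower. JUN and FOS, the subunits of AP-1, had log2 ratios of −1.15 and −1.77 in gonadotrophs and −0.93 and −1.43 in somatotrophs. JUN was also lower in the other main classes, from −1.73 in macrophage-like cells to −0.49 in T or NK-like cells. FOS was lower in all of these but endothelial-like cells, where its log2 ratio was 0.65. RUNX2, a bone factor, had 2 and 0 UMIs in gonadotrophs. ETV5, an ETS factor, had 14.4 and 18.4 CPM in gonadotrophs, a log2 ratio of −0.35 (−0.76 to 0.03), and VDR, the vitamin D receptor, had 36.0 and 29.0 CPM in somatotrophs, a ratio of 0.31.

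Over the 23 class by library units of at least 50 cells, the genes whose log2(CPM + 1) lay closest to SPP1 included GH. Among 14978 genes, GHSR, the ghrelin receptor, had the highest Pearson correlation at 0.76, and GH itself had 0.70. Between them came C2CD4A at 0.75, WSCD2 and SPIDR at 0.73 and the transcription factor SOX3 at 0.70. NKX2-2, a homeodomain factor, had 0.69 and MAOB, a monoamine oxidase, had 0.68. The units share libraries, depth and free RNA, so these values are a description.

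Across the 264 gonadotrophs of the 6-month library the closest gene was SMYD2, a lysine methyltransferase, with a correlation of 0.31, followed among genes with a name by the chemokine CCL27 at 0.29 and the tetraspanin CD9 at 0.26. CD9 also stood higher in gonadotrophs as a class, with 169 CPM in the 6-month library and 54.3 CPM in the 3-month library. At the other end were HSPA1A, an inducible heat shock protein, at −0.26, ESR1, the estrogen receptor alpha, at −0.24 and VCAN at −0.23. VCAN was among the genes that set cluster 21 apart. Cluster 24 held 2755 of the 2947 SPP1 UMIs of these gonadotrophs, so the correlations span clusters. Across the 1263 somatotrophs of the 3-month library the closest named genes were NMB, neuromedin B, at 0.24 and GH at 0.20, after LOC114116958 at 0.42. ISG15, IRF9 and IFI6, genes of the interferon response, lay at the low end with −0.37, −0.28 and −0.26. Across the 461 somatotrophs of the 6-month library GH was the closest at 0.27, and the low end held LOC121818276 at −0.21, TAOK2 at −0.20 and PCP4 at −0.18, with no interferon gene among these 3. These correlations are weak, counts per cell are sparse, and cells of 1 library share its depth and free RNA.

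**Figure D5:**
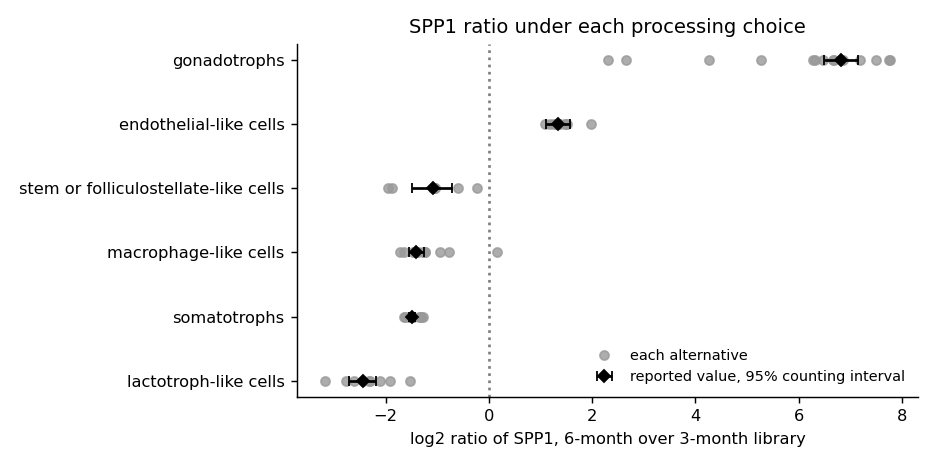
Log2 ratio of SPP1, 6-month over 3-month library, in 6 classes; black diamonds are the reported values with 95% counting intervals and grey points the values under each alternative processing. Gonadotrophs ranged from 2.30 to 7.77 and endothelial-like cells from 1.09 to 1.98, while somatotrophs ranged from −1.64 to −1.27 and macrophage-like cells from −1.72 to 0.16.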

How the data were processed

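Each library came as a matrix of raw UMI counts by gene and cell barcode, which the authors deposited with no normalization. The anterior lobe had been dissociated with type IV collagenase, strained and cleared of red blood cells, per the labels' protocols. Cell Ranger made the counts, in version 5.0.0 per the submitters' processing notes and 5.0.1 per the file headers. No genome build or annotation is named in the sources used here. The deposited feature and barcode lists hold other, non-numeric entries. Of the gene identifiers, 22726 (98.2%) matched the RefSeq genes of ARS-UI_Ramb_v3.0, from which names alone were taken.

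Barcodes with at least 1000 UMIs and 500 genes were kept. Scrublet, as built into scanpy 1.11.5, marked 570 doublets (4.30%) in the 6-month library and 922 (5.63%) in the 3-month library, which were removed. Cells were clustered on 3000 variable genes, without hormone genes, ribosomal protein genes and SPP1, with 30 principal components, 15 neighbours and the Leiden method at resolution 1.0, which gave 30 clusters. A list of 128 markers for 17 cell classes, 119 of them in the files, gave names to 27 clusters. A marker counted when it was 1.5-fold above the median cluster and in at least 10% of cells. A name needed 3 markers, and this scoring was settled after the clusters were seen. Cells in both hormone gates, 4 of the 3-month library, were set apart.

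SPP1 UMIs were summed per class and library and scaled with edgeR 4.0.16 effective library sizes (TMM), except where CPM is said to be of the UMI totals. With 1 library per age there was no test. Ratios have exact conditional binomial intervals, sums exact Poisson and shares exact Clopper-Pearson intervals, all at 95% and for counting error only. The ratio and scaling step was run on simulated sums drawn with counting error alone. The intervals rest on the same model, so that run does not bear on the spread between cells. A gene was called measured in a class with at least 100 summed counts, and past the threshold at 2-fold. Named genes were SPP1, the genes on 6 lists that SPP1 biology gives, and the 10 genes most correlated with SPP1 over classes, in gonadotrophs of the 6-month library and in somatotrophs of the 3-month library, with the lowest few added. SPP1 and the lists were chosen with earlier results of these data known. For shares of cells, T or NK-like cells alone served as the free RNA level, since endothelial-like cells, also foreseen for it, had more SPP1. Expected free SPP1 UMIs came instead from hormone genes foreign to a class. Per class and library, the foreign hormone gene lowest relative to its share over all cells set the free RNA share. That share was applied to the SPP1 of all cells of the library.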

Additional observations from a re-analysis of the deposited data

Results flagged for a closer look

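The SPP1 ratio between the libraries had opposite signs in different classes. In gonadotrophs the log2 ratio, 6-month over 3-month library, was 6.82, in endothelial-like cells it was 1.34, and in somatotrophs it was −1.49. The difference between the classes was not tested, because each age had 1 library.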

How the results depend on the processing

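Under every alternative run, SPP1 kept its direction in gonadotrophs (16 alternatives), somatotrophs (13), lactotroph-like cells (9) and endothelial-like cells (11). In macrophage-like cells it did so under 13 of 14, the exception being cluster 11 alone, chosen after seeing the data, where the log2 ratio was 0.16 (−0.69 to 1.16). In stem or folliculostellate-like cells the 9 values were below 0, but the interval with free RNA subtracted, −0.22 (−0.94 to 0.44), covered 0. An alternative counted as moved when its value left the counting interval of the reported one.

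In gonadotrophs the log2 ratio was 6.29 with doublets kept, 7.77 without the 1% of cells with most SPP1 and 6.33 when thinned to 2000 UMIs. It was 7.49 with a gate of LHB at 0.15% and CGA at 1.5% (with GH at 5%), 7.18 with LHB at 1% and CGA at 5% (with GH at 20%), and 6.46 in the clusters named gonadotroph-like. It was 5.27 without cells with an IGFBP1 UMI and, in alternatives chosen after seeing the data, 4.27 without cluster 24, 2.65 when the cell of each library with most SPP1 was left out as well, 2.30 without IGFBP1 cells and the 2 cells of each library with most SPP1, and 7.75 without cells with GH at 0.5% or more. In somatotrophs it was −1.27 on UMI totals without TMM, −1.32 on UMI totals without hormone genes, −1.32 as a mean of per-cell CPM, −1.35 thinned, −1.64 with a gate of GH at 5% and −1.63 in the clusters named somatotroph-like. In macrophage-like cells it was −1.24 with at least 500 UMIs and 200 genes, −1.72 with doublets kept, −1.23 on UMI totals without hormone genes, −0.95 as a mean of per-cell CPM, −1.64 without the 1% of cells with most SPP1, −0.77 thinned and −1.25 at Leiden resolution 0.5. The causes were not tested.

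Subtracting free RNA left 0 of 80 UMIs in gonadotrophs of the 3-month library and under 3 in T or NK-like cells of that library, so no ratio was formed there. In lactotroph-like cells, against −2.44, the ratio was −1.91 with at least 500 UMIs and 200 genes, −1.53 with doublets kept, −3.17 with free RNA subtracted, −2.77 without the 1% of cells with most SPP1 and −2.10 thinned. In stem or folliculostellate-like cells, against −1.09, it was −0.59 with doublets kept, −1.95 as a mean of per-cell CPM and −1.88 without the 1% of cells with most SPP1. Genes at least 2-fold higher in gonadotrophs numbered 393 with 100 summed counts, 648 with 30 and 2872 with no minimum, and genes at least 2-fold lower in somatotrophs 169, 440 and 1017. The gap in shares thinned to 5000 UMIs was 13.2 points in gonadotrophs, −16.0 in somatotrophs and −5.61 in macrophage-like cells.

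No paired analysis was possible because each age has 1 library. Depth limits classes with few SPP1 UMIs, and the libraries differ in depth as well as in age.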

Other observations

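Endothelial-like cells with SPP1 in the 6-month library also differed in other transcripts. Across the 431 cells, SPP1 correlated most with KITLG, the ligand of the KIT receptor, at 0.43, with the collectin COLEC11 at 0.38, with EPHX1, an epoxide hydrolase, at 0.37 and with VWF, von Willebrand factor, at 0.30. The cytoskeletal actins ACTG1 and ACTB lay at the other end, at −0.23 and −0.22. Clusters 8 and 17 stood at 158 and 235 CPM of the UMI totals and cluster 20 at 54.2 CPM, so the correlation spans clusters. This class was added after the data were seen.

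Across the 1362 macrophage-like cells of the 3-month library the genes closest to SPP1 were DAB2, an endocytic adaptor, at 0.19, LIPA, the lysosomal acid lipase, at 0.18 and CREG1 at 0.17, and across the 1704 cells of the 6-month library IRF4 stood at 0.13. These values are weak and are given as a description.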
